A study of Mus musculus with 4 samples.

Results

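The CDK inhibitors are the 7 small proteins that bind cyclin-dependent kinases (CDKs) and restrain the cell cycle. Their transcripts were followed in C2C12 cells, a mouse myoblast line, transfected with an siRNA against a constitutive exon of Fxr1 (siFxr1) or with a random control siRNA of matching GC content (siControl). Each condition was taken in 2 biological replicates, numbered as experiment 1 and experiment 2. Within an experiment, siFxr1 and siControl were on the same slide. The transfection is transient and in a single line, and the study analysed transfected cells 48 hrs later. Total RNA labelled with Cy3 was hybridised on 4 one-colour Agilent arrays. The members were all probes that the array annotation gives to Cdkn1a, Cdkn1b, Cdkn1c, Cdkn2a, Cdkn2b, Cdkn2c or Cdkn2d, whatever their values. These 7 genes, of 36330 gene names on the array, have 12 of its 55681 non-control probes.

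The family has a pair of branches. The CIP/KIP proteins p21 (Cdkn1a), p27 (Cdkn1b) and p57 (Cdkn1c) bind whole cyclin-CDK complexes, above all those of Cdk2. The INK4 proteins p16 (Cdkn2a), p15 (Cdkn2b), p18 (Cdkn2c) and p19 (Cdkn2d) bind Cdk4 and Cdk6 and keep D-type cyclins from activating them. In both cases Rb stays unphosphorylated, E2F target genes stay repressed and the cell does not enter S phase. In the muscle lineage p21, p57 and p18 are induced as myoblasts leave the cycle and fuse. The p27 protein is controlled largely by its degradation, p21 is the best known transcriptional target of p53, and the Cdkn2a-Cdkn2b locus is repressed by Polycomb proteins.

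Between 45.4% and 52.9% of the probes were well above background on an array, and no spot was saturated. The sample of siFxr1 in experiment 1 had an RNA integrity number of 8, against 9 elsewhere. Both Fxr1 probes were lower in both siFxr1 samples, with log2 differences of -3.61 and -3.31. Of 6 myoblast markers, 5 were well above background on all 4 arrays, and Myf5 on none. Of 8 markers of leukocytes, endothelium, epithelium, glia and fat, 4 were well above background on no array, namely Ptprc, Epcam, Sox10 and Adipoq. The endothelial cadherin Cdh5 was so on all 4, at 6.02 to 6.75, and the endothelial Pecam1 on 3. The leukocyte marker Cd68 and the epithelial Krt5 were well above background on 2 arrays each. With the condition as the only term of the limma model, no probe on the array was called changed, by a B value (log odds of a change) above 0 or a Benjamini-Hochberg adjusted p under 0.05, and the share called was therefore 0%. The lowest adjusted p was 0.950, and 2764 probes, or 4.96%, had an unadjusted p under 0.05. Both probes of Fxr1, the target of the siRNA, were not called either (limma adjusted p = 0.950). A high adjusted p in this fit therefore does not show that a transcript was unchanged. The p-values measure the spread between 2 samples a condition. Signals are given below as quantile-normalized, background-corrected log2 values, and a difference of 1 is a 2-fold difference. Each probe binds its target differently, so levels are compared between samples of a probe and not between probes. In a bulk culture, fewer cells with a transcript and less transcript per cell cannot be told apart.

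Cdkn1a is read by 3 probes, and they did not give 1 answer. Between siFxr1 and siControl the probe of the longer 5′ variant differed most, and the probe shared by both RefSeq variants differed in experiment 2 and hardly in experiment 1. A_55_P1986282 lists NM_001111099 alone, variant 2, which starts at the distal promoter, and lies on chromosome 17 of mm9, from 29227986 to 29228045. A_51_P363947 lists both NM_007669 and NM_001111099 and lies in their common 3′ part, from 29237377 to 29237436. A_55_P1976204 lists an Ensembl transcript (ENSMUST00000122348) and no RefSeq variant, and lies between the others, from 29235299 to 29235358. In all, 9451 bases of mm9 separate the start of the variant 2 probe from the end of the shared probe. In GRCm38.p6, 9744 bases separate the distal start from the end of the gene and 6954 the proximal start from it, so the variant 2 probe lies farther from the shared probe than the proximal start lies from the end of the gene. A stretch of 30 of the 60 bases of each probe is shown so that a reader can place it. The capitals mark the 6 bases with which the last probe ends and with which the primer that the study used for the p21 coding sequence begins.
Cdkn1a A_55_P1986282, first bases: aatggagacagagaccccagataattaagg
Cdkn1a A_51_P363947, first bases: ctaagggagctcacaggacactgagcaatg
Cdkn1a A_55_P1976204, last bases: tcttgtgtttcagccacaggcaccATGTCC

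The variant 2 probe read 9.19 and 10.62 in siFxr1 of experiments 1 and 2, and 6.33 and 6.73 in siControl. Both siFxr1 samples stood above both siControl samples. The fitted log2 difference was 3.37 (SE 0.60, n = 2 a condition, limma adjusted p = 0.950), a 10.3-fold higher signal, with 7.23-fold in experiment 1 and 14.8-fold in experiment 2. In raw units the spot was 7.28 and 32.6 times its local background in siFxr1 and 2.53 and 4.35 times in siControl, so the siControl values are those of a dim spot. The size of the difference thus depends on the background correction. Without that correction, and also in the authors' quantile-normalized table, the fitted log2 difference was 2.45. A probe counts here as detected when both arrays of siFxr1, or both of siControl, were well above background at it. Of the 25523 detected probes with a value on all 4 arrays, 29 had a larger fitted difference. It was the only CDK inhibitor probe at least 2-fold higher in both experiments, where 1.94% of those 25523 probes were.

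The shared 3′ probe read 15.52 and 15.04 in siFxr1 and 15.44 and 13.33 in siControl. Experiment 2 of siControl stood low, and the other 3 arrays lay within 0.48 of each other. The difference was 0.08 in experiment 1 and 1.71 in experiment 2, a fitted 0.90 (SE 0.86, limma adjusted p = 0.975), and the groups overlapped. This probe is printed on the array 10 times, and the SD over those spots was between 0.04 and 0.07 on each array, far below the difference between the siControl samples. Without siControl of experiment 2 the fitted difference was -0.16, and without siControl of experiment 1 it was 1.95, so each siControl sample alone decides its value.

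The third probe, A_55_P1976204, read 7.17 and 8.52 in siFxr1 and 6.57 and 7.84 in siControl. It was higher in siFxr1 by 0.60 in experiment 1 and by 0.67 in experiment 2, with a fitted 0.64 (SE 0.74, limma adjusted p = 0.975), and the groups overlapped because experiment 2 was higher in both conditions. With the experiment as a block the SE fell to 0.19 and the limma adjusted p was 0.559. Without siFxr1 of experiment 2, which leaves siControl of that experiment without its pair, the fitted difference was -0.03.

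The probes were set against each other within each array. The log2 difference between siFxr1 and siControl was larger at the variant 2 probe than at the shared 3′ probe by 2.47, with 2.77 in experiment 1 and 2.17 in experiment 2. It was larger than that of A_55_P1976204 by 2.73, with 2.25 and 3.21. For both pairs the exact two-sided permutation p was 0.333, which is the smallest that 2 samples against 2 can give. The permutations here and below exchanged arrays without regard to the experiment, so they did not use the pairing. The shared probe and A_55_P1976204 stood 0.26 apart, with opposite signs in the experiments (-0.52 and 1.04, exact permutation p = 1).

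**Figure D1:**
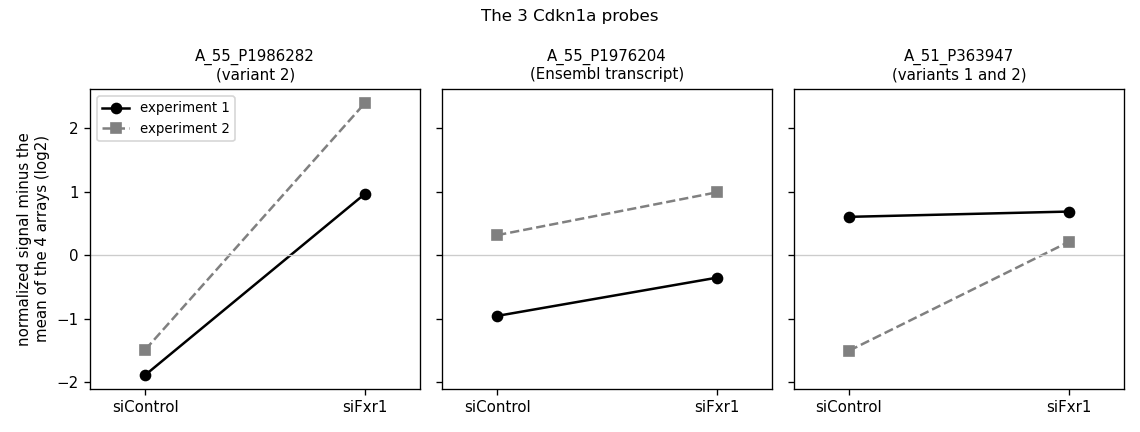
Signal of the 3 Cdkn1a probes in siControl and siFxr1, each minus the mean of its 4 arrays (log2), with 1 line an experiment. The lines of the variant 2 probe climb by 2.85 and 3.89, those of A_55_P1976204 by 0.60 and 0.67, and those of the shared probe by 0.08 and 1.71.

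The variants of Cdkn1a have separate promoters, and RefSeq lists 2 starts for the gene, 2790 bases apart. The 250 bases before each are shown because the probe with the large difference belongs to the distal start and the shared probe to both. The windows are chr17:29090729-29090978 (distal) and chr17:29093519-29093768 (proximal) of GRCm38.p6, plus strand. In the distal window, capitals mark decamers of the p53 response element, in which the central C and G were required and a pair of decamers, up to 13 bases apart, was allowed 1 mismatch in all. In the proximal window they mark GGGCGG, the GC box known to bind Sp1.
Cdkn1a distal promoter: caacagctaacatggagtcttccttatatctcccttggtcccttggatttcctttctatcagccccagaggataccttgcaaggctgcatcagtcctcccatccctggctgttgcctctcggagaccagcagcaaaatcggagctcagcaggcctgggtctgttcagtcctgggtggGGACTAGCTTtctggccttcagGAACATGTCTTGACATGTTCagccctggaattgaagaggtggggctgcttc
Cdkn1a proximal promoter: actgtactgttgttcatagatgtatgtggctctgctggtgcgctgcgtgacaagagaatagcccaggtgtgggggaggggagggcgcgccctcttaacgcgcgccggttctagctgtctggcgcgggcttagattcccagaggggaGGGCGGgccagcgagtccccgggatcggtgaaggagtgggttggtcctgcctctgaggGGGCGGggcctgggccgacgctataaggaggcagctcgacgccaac
The distal window holds 3 such decamers, at 73, 51 and 41 bases before the start, of which the last carries the mismatch. Of all 32851 promoter windows of 250 bases in the table, 0.505% held a p53 response element by these criteria, and of the 9 windows of the CDK inhibitors this was the only one. GGGCGG, searched on both strands, was in 5 of the 9 windows, with 2 copies in the proximal Cdkn1a window, and in 32.7% of all windows. The E-box CAGCTG, a form that MyoD binds, was in 0 of the 9 and in 4271 of the 32851. The 9 windows belong to Cdkn1a, Cdkn1b, Cdkn2a, Cdkn2b, Cdkn2c and Cdkn2d. A match is a run of letters and was not tested for binding.

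Cdkn1b, which encodes p27, went the other way. Its probe A_55_P2026562 (NM_009875, chromosome 6 of mm9, 134875424 to 134875483) read 13.42 and 13.09 in siFxr1 and 13.95 in both siControl samples. Both siFxr1 samples lay below both siControl samples, by 0.53 in experiment 1 and 0.86 in experiment 2. The fitted difference was -0.70 (SE 0.20, unadjusted p = 0.033, limma adjusted p = 0.975), or 0.617 of the siControl signal. The second Cdkn1b probe, A_52_P673863 (ENSMUST00000067327, 134873606 to 134873665), was dim, at 6.64 and 6.82 in siFxr1 and 6.47 and 7.03 in siControl, and its fitted difference was -0.02 (SE 0.27). Its sign turned to 0.06 when arrays were scaled to their 75th percentile. The differences of both probes were apart by 0.68, in the same direction in both experiments (exact permutation p = 0.333, the smallest possible). Cdkn1a variant 2 and this Cdkn1b probe were the only 2 of the 12 family probes with an unadjusted p under 0.05, where 4.96% of all probes had one.

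Cdkn1c, which encodes p57, has 1 probe, A_51_P339540 (NM_009876, chromosome 7 of mm9, 150644753 to 150644812). It read 8.91 and 7.11 in siFxr1 and 6.45 and 6.98 in siControl. The siFxr1 samples stood above the siControl samples, but in experiment 2 only by 0.13, while in experiment 1 they did by 2.46. The fitted difference was 1.30 (SE 0.75, limma adjusted p = 0.975), and without siFxr1 of experiment 1 it was 0.40. In siFxr1 of experiment 1 the spot was 6.96 times its local background, and on the other 3 arrays between 2.28 and 4.44 times. That sample is also the one with the lowest RNA integrity number, whose part in the value was not tested.

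**Figure D2:**
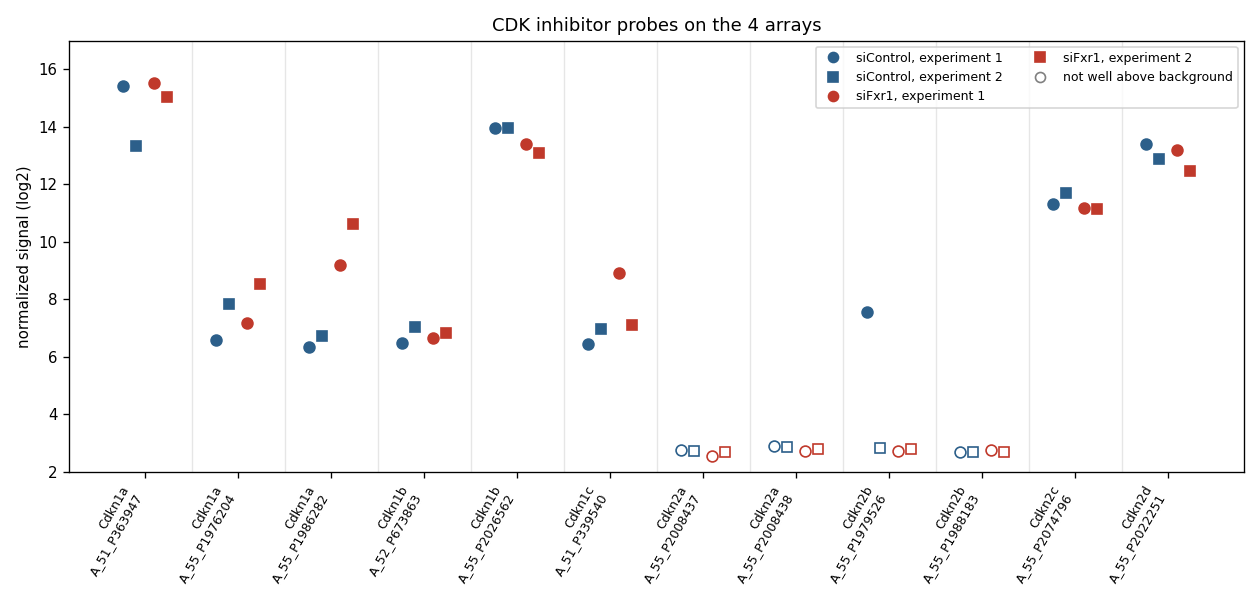
Normalized log2 signal of each of the 12 CDK inhibitor probes on the 4 arrays, with circles for experiment 1, squares for experiment 2 and open symbols where the spot was not well above background. Cdkn2a and Cdkn2b probes sit at the bottom of the scale apart from 1 value, and the siFxr1 symbols of Cdkn1a A_55_P1986282 stand well above its siControl symbols.

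The INK4 branch divided into transcripts at background and transcripts with a clear signal. Both Cdkn2a probes, A_55_P2008437 and A_55_P2008438, list the transcripts of p16 and of p19Arf alike, and so cannot tell them apart. Their signals lay between 2.55 and 2.89 on all 4 arrays, not well above background on any. The Cdkn2b probe A_55_P1988183 lay between 2.68 and 2.76 and was not well above background either. The other Cdkn2b probe, A_55_P1979526, read 2.71 and 2.78 in siFxr1 and 7.56 and 2.82 in siControl. It was thus above background on 1 array only, siControl of experiment 1, where the raw spot was at 262 against a local background of 73. In experiment 2 it was not well above background in either condition. No fold change is given for the Cdkn2a and Cdkn2b probes.

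Cdkn2c, which encodes p18, read 11.18 and 11.15 in siFxr1 and 11.32 and 11.71 in siControl (A_55_P2074796, NM_007671, chromosome 4). Both siFxr1 samples lay below both siControl samples, by 0.14 and 0.56, with a fitted difference of -0.35 (SE 0.21, limma adjusted p = 0.975). Cdkn2d, which encodes the INK4 protein p19, read 13.19 and 12.46 in siFxr1 and 13.42 and 12.90 in siControl (A_55_P2022251, NM_009878, chromosome 9). It was lower in siFxr1 by 0.23 and 0.43, but the groups overlapped and the fitted difference was -0.33 (SE 0.38, limma adjusted p = 0.975). With the experiment as a block its SE was 0.20 and the limma adjusted p 0.684. Neither INK4 transcript with a signal differed by 2-fold in an experiment.

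**Figure D3:**
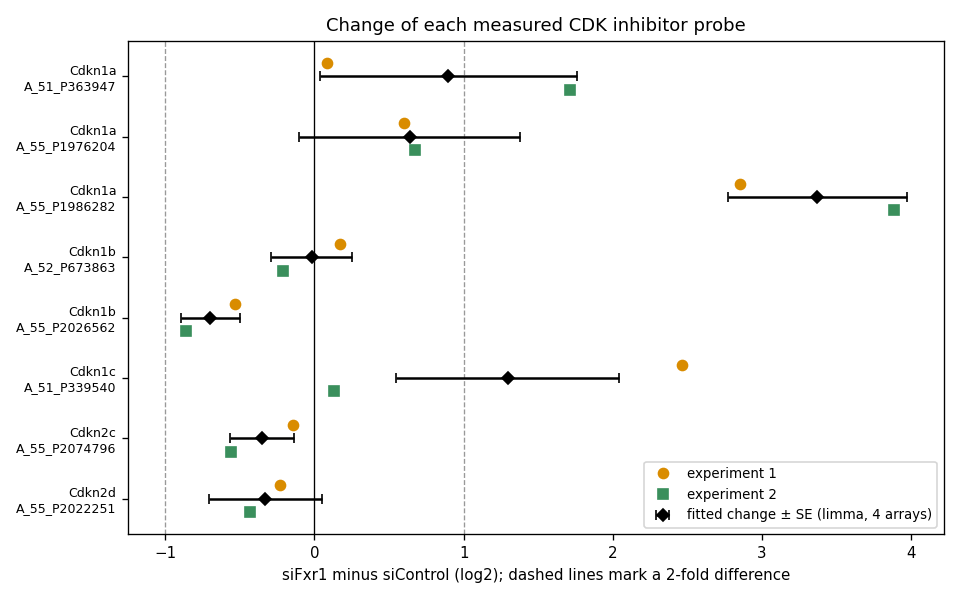
Difference of siFxr1 minus siControl (log2) for the 8 detected CDK inhibitor probes, in experiment 1 (circles), experiment 2 (squares) and as fitted with its SE (diamonds). Cdkn1a A_55_P1986282 lies beyond 2-fold in both experiments, and Cdkn1c and the other Cdkn1a probes reach 2-fold in at most 1.

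At 8 of the 12 members the signal was well above background on each of the 4 arrays. Of these 8, 4 were higher in siFxr1 in both experiments, namely the 3 of Cdkn1a, which share a gene, and that of Cdkn1c, against 33.2% of the 25523 probes. The 3 that were lower in both, against 31.0%, were the brighter Cdkn1b probe, Cdkn2c and Cdkn2d. Both siFxr1 samples stood above both siControl samples at 2 of the 8 (Cdkn1a variant 2 and Cdkn1c), and 15.9% of all such probes did so. Both stood below at 2 (Cdkn1b and Cdkn2c), against 14.8%. No member was 2-fold lower in both experiments, as 1.72% of the probes were. No member was called in the fit with the condition alone, nor with the experiment as a block, where the share called was 0% as well. Both Fxr1 probes also went uncalled in these fits (limma adjusted p = 0.950 and 0.535), so a missing call does not show an unchanged transcript. With the block the SE was 0.35 at Cdkn1a variant 2, 0.50 at the shared probe and 0.19 at A_55_P1976204. At the brighter and the dim Cdkn1b probe it was 0.21 and 0.22, at Cdkn1c 0.69, at Cdkn2c 0.23 and at Cdkn2d 0.20. Cdkn1a variant 2 was the 1 member called when the block was joined with a filter on dim probes (limma adjusted p = 0.021; 1.39% of probes called), or with the median signal minus local background (adjusted p = 0.014; 0.616%). It was also called when the 4 ratios of siFxr1 over siControl arrays were fitted as observations, which counts each array more than once (adjusted p = 0.046; 1.99%), and in that fit with the median signal minus local background (B = 0.87, adjusted p = 0.066; 1.18%). Under the 12 alternatives that kept all 4 arrays, its log2 difference lay between 2.45 and 3.38, and with 1 array dropped at a time between 2.65 and 4.08.

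**Figure D4:**
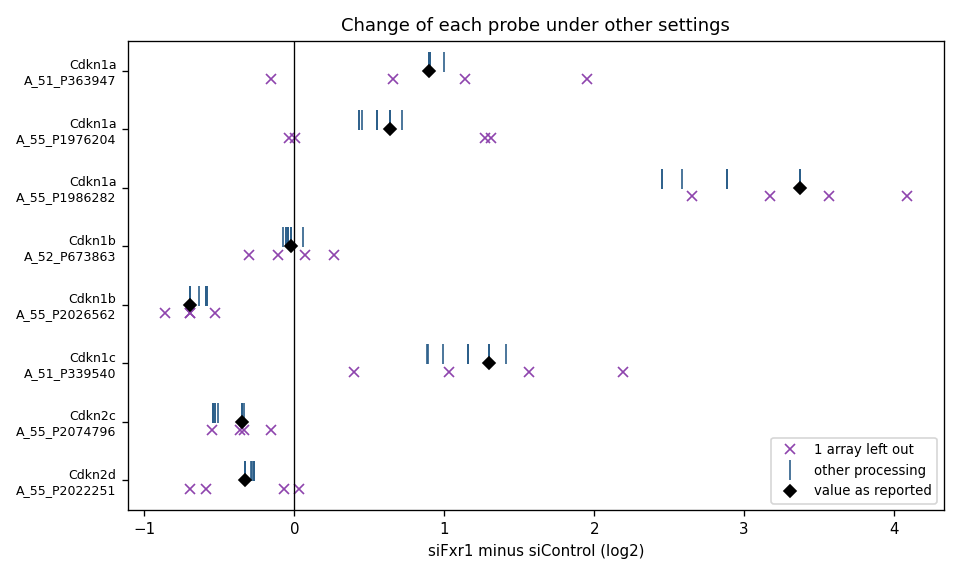
Difference of siFxr1 minus siControl (log2) for the same 8 probes as reported (diamonds), under other processing (ticks) and with 1 array left out (crosses). Cdkn1a A_55_P1986282 stays above 2 and the brighter Cdkn1b probe stays below 0 under all of them, while crosses of the other 2 Cdkn1a probes, the dim Cdkn1b probe and Cdkn2d lie on both sides of 0.

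The experiments themselves differed in muscle differentiation transcripts. All 17 detected genes of a list of 18 muscle differentiation genes were higher in experiment 1 than in experiment 2 in both conditions, by a median of 2.03 on the log2 scale in siControl and 2.09 in siFxr1. Of the 8 detected CDK inhibitor probes, 2 were higher in experiment 1 in both conditions (the shared Cdkn1a probe and Cdkn2d), where 41.7% of the probes were, 3 were lower in both (the other Cdkn1a probes and the dim Cdkn1b probe), against 33.3%, and 3 had opposite signs. The shared Cdkn1a probe was higher in experiment 1 by 2.11 in siControl and by 0.48 in siFxr1. A_55_P1976204 went the other way, by -1.27 and -1.34, and was the 1 member of 8 for which the experiments differed by 2-fold in the same direction in both conditions, as 11.0% of the probes did. The variant 2 probe was also lower in experiment 1, with -0.40 in siControl and -1.43 in siFxr1. Cdkn1c was higher in experiment 1 by 1.79 in siFxr1 and lower by 0.54 in siControl. Cdkn2d was higher in experiment 1 by 0.52 in siControl and 0.72 in siFxr1. Each experiment was on a slide of its own, so a difference between the slides cannot be told apart from one between the cultures. What the difference between the experiments contributes to these values was not tested.

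Genes with the same course over the 4 arrays were looked up for each Cdkn1a probe among 15586 probes of other named genes, by the root mean square difference of centred log2 signals. For the shared probe they were Fbxw11, Neu3 and Entpd5, with differences of 0.05 to 0.08, and 76 probes lay within 0.25. For A_55_P1976204 they were Ly6e, Gm6809 and Cebpd, again with 0.05 to 0.07, and 145 probes lay within 0.25. The variant 2 probe had 1 probe within 0.25, that of Gm379 at 0.247, followed by Asgr1 at 0.275 and Prss12 at 0.310. The measure is not scaled to the size of a profile, so a probe with a large difference can have few probes near it whatever its course. Over only 4 arrays such a likeness describes the profile and no more.

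The genes around the inhibitors were read at 1 probe a gene, the brightest. In the fit with the condition alone and in that with the block, where no probe on the array was called, none of them was. The fit of the 4 ratios, which called 1.99% of all probes, called 4 of them. Lower in siFxr1 were Cdk4, 1 of 9 kinases and cyclins, and Cbx6, 1 of 16 regulators of the Ink4 genes. Phlda3 and Zmat3, 2 of 20 p53 targets, were higher, and no gene of the other lists was called. Cdk4 and Cbx6 have 3 probes each, of which only the brightest was read. Cbx6, a Polycomb protein (-0.66), and Phlda3, a p53 target (0.87), are named for this call. Over all detected probes the median log2 difference was 0.02. Of the 25523 with a value on all 4 arrays, 33.2% were higher and 31.0% lower in siFxr1 in both experiments. These are the shares beside which the counts of each list below stand.

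Among the kinases and cyclins that the inhibitors act on, 8 of 9 were detected, with a median difference of -0.04 (0.07 with scaling to the 75th percentile), 3 higher and 2 lower in both experiments. Cdk4, the main partner of the INK4 proteins, read 16.25 and 16.24 in siFxr1 and 16.78 and 16.79 in siControl, a difference of -0.54 (unadjusted p = 0.030). The samples of a condition lay within 0.010 of each other. Ccna2, the S-phase cyclin A, differed by -0.41 and Ccnd1, a cyclin D of the G1 phase, by 0.33, with opposite signs of Ccnd1 in the experiments. The widest difference of the 8 was that of Ccnd2, at 1.11 (SE 0.52), with 0.80 in experiment 1 and 1.42 in experiment 2. Ccnd2 was well above background on 3 arrays only and was picked out after the values were seen.

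The Rb family and E2F factors gave a median of 0.02 over 13 genes, 4 higher and 4 lower in both experiments. The widest differences were those of Rbl2, the pocket protein p130 (-0.95), of the repressive factor E2f7 (-0.93) and of E2f6 (0.59). Only 1 of the 13 had an unadjusted p under 0.05. It was E2f8, picked out after the values were seen, with a difference of 0.55 (unadjusted p = 0.040, limma). Of the 25523 probes, 3.41% had such a p with a higher value in siFxr1. Of 20 E2F target genes, none was higher in both experiments, against 33.2% of the 25523 probes, and 10 were lower in both, against 31.0%. Their median was -0.30, with -0.03 in experiment 1 and -0.64 in experiment 2. With 1 array left out the median lay between -0.44 and -0.12. Mki67, which encodes the Ki-67 antigen of cycling cells, differed by -0.83, and the replicative helicase subunits Mcm7 and Mcm3 by -0.70 and -0.69. None of the 20 had an unadjusted p under 0.05.

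Of 20 listed p53 targets other than Cdkn1a, 19 were detected. Of these, 14 were higher in siFxr1 in both experiments, against 33.2% of the 25523 probes. In both experiments 0 were lower, against 31.0%, and 5 had opposite signs. The median difference was 0.86, with 0.65 in experiment 1 and 0.94 in experiment 2. An unadjusted p under 0.05 with a higher value in siFxr1 was found for 8 of the 19, against 3.41% of the 25523 probes. The median lay between 0.84 and 0.91 under the scaling and background alternatives and between 0.64 and 0.99 with 1 array left out. Zmat3, a zinc finger protein that binds RNA, had the largest difference, with 11.86 and 12.50 in siFxr1 and 10.64 and 10.21 in siControl, a difference of 1.76 (unadjusted p = 0.011, limma). Ei24 differed by 1.28. The fitted difference was below 0 at Gadd45a, a DNA damage response gene (-0.16), and at Perp, a membrane protein of desmosomes (-1.60). The value of Perp rested on 1 high signal of 10.17 in siControl of experiment 1 while the other 3 arrays read 6.44 to 6.85. Mdm2, the ubiquitin ligase of p53, was picked out after the values were seen, and differed by 1.08. Trp53 itself, likewise picked out afterwards, read 10.17 and 11.26 in siFxr1 and 10.04 and 11.81 in siControl, a difference of -0.21 with overlapping groups. These genes were listed with earlier results of the data known, so their common direction is a description.

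Of 19 transcription factors that act on CDK inhibitor genes, 16 were detected, with a median of 0.07, 8 higher and 4 lower in both experiments. Smad2, a mediator of TGF-beta signals, differed by 0.84, the Notch target Hes1 by 0.81 and Sp1 by -0.67. MyoD (Myod1), the master regulator of the muscle lineage, read 13.77 and 13.07 in siFxr1 and 13.93 and 13.80 in siControl, a difference of -0.45. Of 16 Polycomb proteins, demethylases and T-box repressors of the Ink4 genes, 15 were detected, with a median of -0.11, 4 higher and 7 lower in both. Ring1, a ubiquitin ligase of the Polycomb repressive complex, differed by -0.96, the methyltransferase Ezh1 by -0.72 and the repressor Tbx3 by 0.83. An unadjusted p under 0.05 with a lower value in siFxr1 was found for 3 genes, Ring1, Ezh1 and Cbx6. Over the whole array, 947 of the 25523 probes had one. For the turnover of p27 and p21 proteins, all 11 genes were detected, with a median of -0.06 (0.02 with that scaling), 1 higher and 5 lower in both experiments. Cks1b and Skp2, which act together in the ubiquitination of p27, differed by -0.43 and -0.28, and Fbxw7 by 0.26. None of the 11 had an unadjusted p under 0.05.

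Of the 5 detected myoblast markers 3 were higher and 2 lower in both experiments, among them Pax7 (0.33), Musk (0.32) and Myod1 (-0.45). The muscle differentiation genes had a median of 0.08, with 7 higher and 4 lower in both, and of 0.22 with scaling to the 75th percentile. With 1 array left out, which unbalances the experiments, all 17 lay on 1 side each time. Their median was -1.02 without siFxr1 of experiment 1, -1.01 without siControl of experiment 2, 1.11 without siFxr1 of experiment 2 and 1.15 without siControl of experiment 1. The cardiac actin gene Actc1 differed by -0.92, slow troponin I (Tnni1) by 0.71 and the embryonic myosin Myh3 by -0.62.

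**Figure D5:**
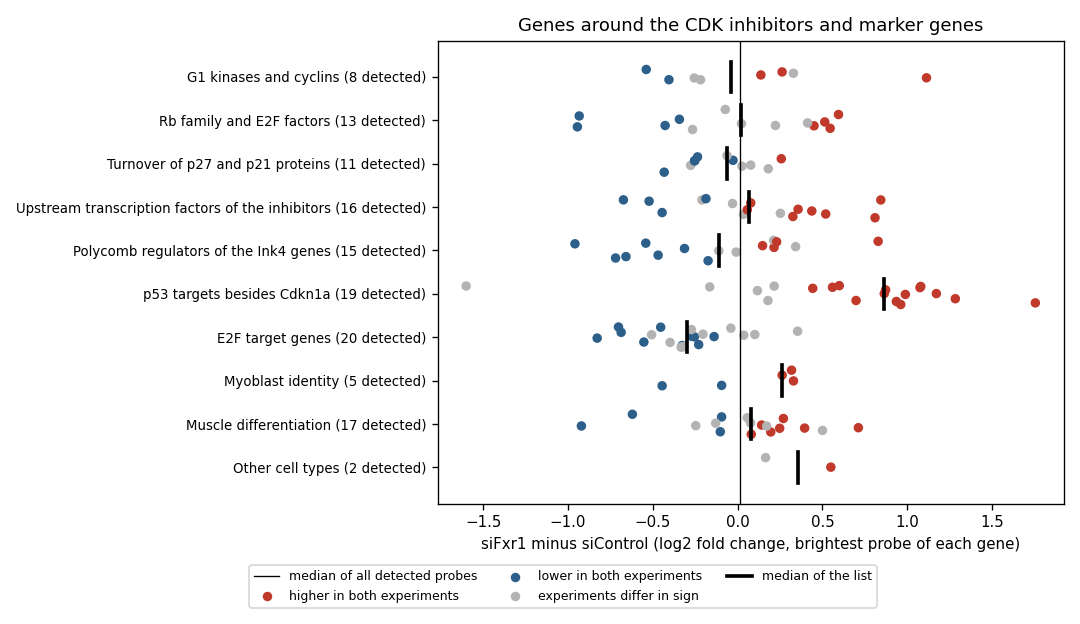
Log2 difference of siFxr1 minus siControl for the detected genes of each list, 1 point a gene, with the list's median as a thick bar and the median of all detected probes as a thin line. Most of the 19 p53 targets lie to the right of the line and most of the 20 E2F targets to the left, and the other lists with more than 5 genes scatter on both sides.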

How the data were processed

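Analysed were 4 one-colour arrays, 2 of siFxr1 and 2 of siControl, grouped by their labels. The authors deposited the spot intensity read by Agilent Feature Extraction 10.7.3.1, with background subtraction and detrending within an array, and a table of quantile-normalized intensity used here as an alternative. The log2 of the background-corrected signal was quantile-normalized between arrays (59305 non-control spots each), spots marked as outliers (145 to 177 an array) were set to missing, and spots of a probe were averaged. Tests used limma 3.58.1 in R 4.3.3 with the condition as the only term, over 55681 probes. The paper's methods name limma, quantile normalization, ratios from all comparisons and a B value above 0, and leave the model open. The fit of the 4 ratios is another reading of them. Other settings are given in the closing section. A probe was taken as well above background where the software had marked a share of 0.5 or more of its spots so, and detected when this held on both arrays of a condition. The fits were tested on simulated data whose noise came from limma's moderated SDs, shuffled over the probes. The fit with the condition alone was required to recover the known changes only where no difference between the experiments was simulated. In a first version with unmoderated SDs, which are wider in range, the fit with the experiment as a block called none of the probes that had been given a known change, and the noise was then replaced. The real noise may lie between these versions, so the test does not tell how many true differences the fits miss.

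Replicate numbers mark experiments that shared a slide, so they pair the samples. Samples of the same number deviated together from the means of their conditions (correlation 0.741).

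The members, the lists and the rule for named genes were chosen with earlier results of these data known. The rule takes every member probe, Fxr1, Myod1, up to 3 genes of each list with the widest difference among those well above background on all 4 arrays, and the 3 closest profiles for each Cdkn1a probe. Probe positions are those of the array annotation, on mm9. Promoters are from RefSeq (GRCm38.p6), matched by symbol for 6 of the 7 genes. Precision is limited by the number of arrays.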

Additional observations from a re-analysis of the deposited data

How the results depend on the processing

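Calls over all probes numbered 0 as reported and under 8 of 12 alternatives, among them the replicate block alone, in which 4927 probes had an unadjusted p under 0.05. The exceptions were the 4 ratios as observations (1107 probes), those ratios on the median signal minus local background (659), and the block joined with that signal (343) or with the filter on dim probes (354). In each of these 4 the CDK inhibitor calls went from 0 to 1, Cdkn1a A_55_P1986282, and the cause was not tested. With the pairing in the block its log2 difference of 3.37 had a limma adjusted p of 0.535, and over all alternatives the adjusted p ran from 0.014 to 1. With 1 array left out, calls ranged from 0 to 0 over all probes and over the family. The count of members 2-fold higher in both experiments stayed at 1 under 6 alternatives. Cdkn1b A_52_P673863 turned to 0.060 with scaling to the 75th percentile. With 1 array left out in turn, the sign also turned for Cdkn1a A_51_P363947 (range -0.16 to 1.95, without siControl replicate 2), Cdkn1a A_55_P1976204 (-0.033 to 1.31, without siFxr1 replicate 2), Cdkn1b A_52_P673863 (-0.30 to 0.26, at 0.07 without siFxr1 replicate 1 and 0.26 without siControl replicate 2) and Cdkn2d (-0.69 to 0.032, without siFxr1 replicate 2). It did not for Cdkn1a A_55_P1986282 (2.65 to 4.08), Cdkn1b A_55_P2026562 (-0.86 to -0.53), Cdkn1c (0.40 to 2.19) and Cdkn2c (-0.55 to -0.15). Dropping an array breaks its pair, so these values take in the difference between the experiments. Within the pairs, A_55_P1976204 differed by 0.60 and 0.67 and Cdkn2d by -0.23 and -0.43. A lone array in such a fit is assumed to vary like the other condition. Signal over background limits the Cdkn2a and Cdkn2b probes, for which no difference was measured in both conditions.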

Other observations

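The Cdkn2b probe that was well above background on siControl of experiment 1 alone was not the only one. The cell cycle arrest gene Rprm, on the p53 target list, read 9.37 there and 2.80 to 2.98 on the other 3 arrays. Over the whole array, 504 probes were well above background on that array alone, and 72 of them were at least 16-fold above the next array. The same counts were 277 and 15 for siFxr1 of experiment 1, 1794 and 34 for siFxr1 of experiment 2, and 660 and 47 for siControl of experiment 2. These probes were looked for after the Cdkn2b values were seen, and no source for them was tested.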
